A study of Danio rerio with 12 samples.

Results

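The genes described here are those of fatty acid oxidation and its regulators: the enzymes that activate fatty acids and carry them into mitochondria, the enzymes of beta-oxidation in mitochondria and peroxisomes, the electron transfer flavoproteins, the pyruvate dehydrogenase kinases and the PPAR receptors. They were chosen by name, as a list of 41 gene symbols, with earlier results of these data known. A gene was measured if a probe on the array carried a RefSeq accession of that symbol. This held for 35 of the 41 genes, and all 35 were among the 23645 genes tested. The remaining 6 (cpt1ab, cpt1b, eci1, pdk2a, pdk3a and pparda) were not analysed here.

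Fatty acids are oxidised after they are joined to coenzyme A. Long-chain acyl groups then enter mitochondria on carnitine, a step that malonyl-CoA inhibits, and each round of beta-oxidation removes an acetyl unit through a dehydrogenase, a hydratase, a second dehydrogenase and a thiolase. Electrons from the acyl-CoA dehydrogenases pass through the electron transfer flavoprotein to the respiratory chain. Pyruvate dehydrogenase kinases shut off glucose oxidation when fatty acids are burned, and PPAR alpha and PPAR delta are nuclear receptors that switch on many of these genes in fasting liver and muscle. The liver X receptor (LXR) is a related nuclear receptor, activated by oxysterols, that drives cholesterol disposal and fatty acid synthesis. Roles named below are those of the mammalian counterparts.

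RNA came from pools of 30 whole larvae of wild-type WIK zebrafish, exposed from day 4 to day 6 after fertilization. The groups received the synthetic LXR agonist T0901317 (labelled 2 mM), the synthetic LXR agonist GW3965 (labelled 1 mM), or the vehicle DMSO alone. All groups, the vehicle larvae included, contained 0.1% DMSO, and the media were renewed after 24 h. The doses are printed as labelled, a lost micro sign being possible, and the doses of the agonists differ. Each group had 4 arrays, called biological quadruplicates in the design text. The authors left out T0901317 replicate 2, so 3 T0901317, 4 GW3965 and 4 DMSO arrays were compared. Because the larvae were whole, fewer cells of a tissue and less RNA per cell cannot be told apart.

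On the 11 arrays the 75th percentile of signal was 332 to 390 intensity units, and 78.8% to 83.2% of probes were well above background. Each group occupied 1 slide and 1 scan of its own, so an effect of the slide and one of the agonist cannot be told apart. The exposure was visible in 3 known LXR targets: pltp rose by 3.25 ± 0.19 (log2, SE) under T0901317 and by 2.88 ± 0.18 under GW3965, abcg1 rose 2.28-fold and 2.14-fold, and srebf1 by 1.27 ± 0.13 and 0.64 ± 0.12. All 35 fatty acid oxidation genes were well above background on all 11 arrays. Signals below are scaled to a common 75th percentile and given in intensity units. They can be compared between arrays for 1 gene but not between genes. Differences are log2 differences from the limma fit with their SE, and p-values were adjusted over all genes tested by the Benjamini-Hochberg method.

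Few of these genes passed the test under either agonist. The acyl-CoA synthetase gene acsl1b rose 1.42-fold with T0901317 and 1.46-fold with GW3965, and the pyruvate dehydrogenase kinase gene pdk4 fell to 0.539 and 0.548 of its DMSO level. In addition hadhb, the beta subunit of the mitochondrial trifunctional protein, fell by 0.33 ± 0.07 under T0901317, and echs1, the short-chain enoyl-CoA hydratase, fell by 0.71 ± 0.13 under GW3965. Of the 35 genes, 1 rose and 2 fell under T0901317, which is 8.57% of them, against 2.58% of all genes tested (1.58% higher and 0.998% lower). Under GW3965 also 1 rose and 2 fell, 8.57% against a background of 5.69% (1.22% higher and 4.47% lower). Both comparisons use the same 4 DMSO arrays, so they are not independent of each other.

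**Figure D1:**
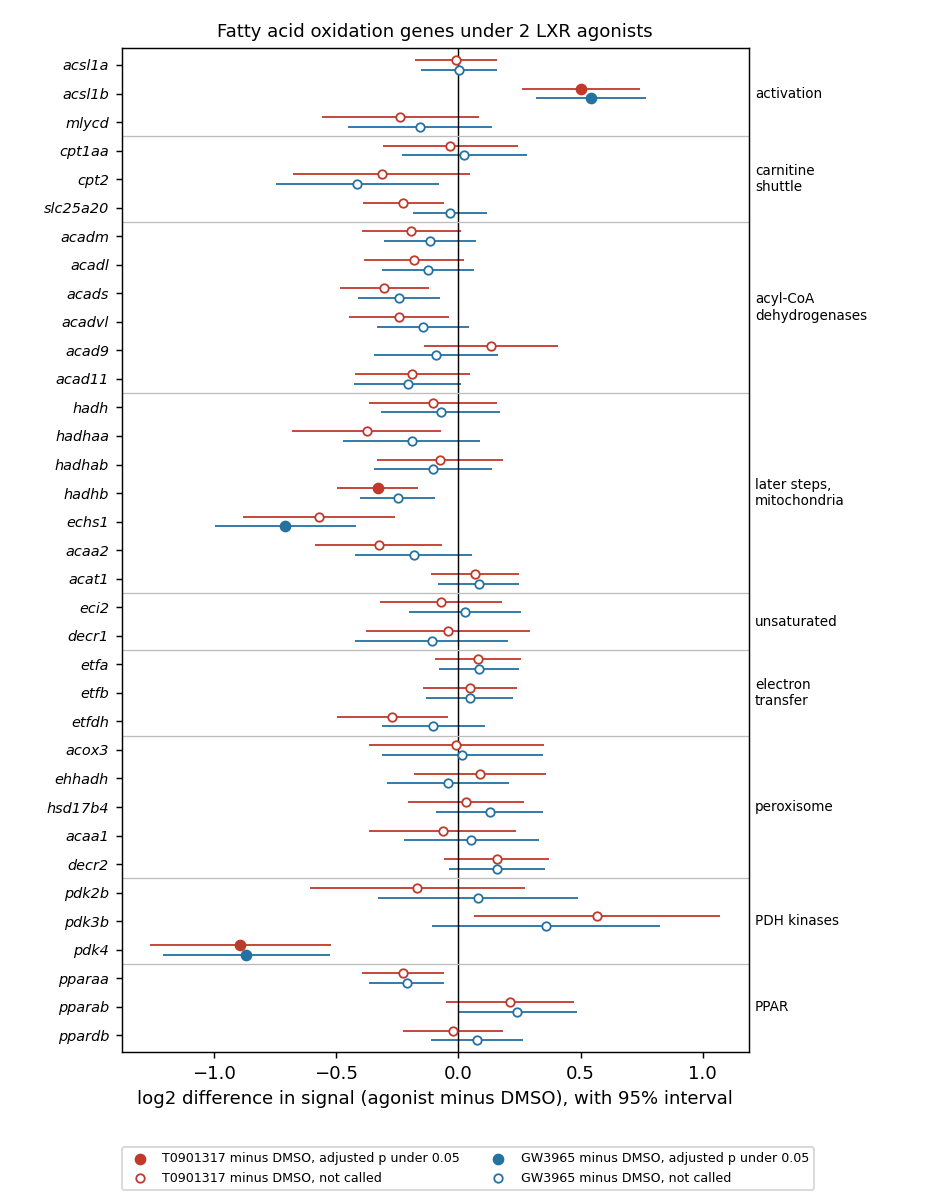
Log2 difference of each agonist from DMSO (x axis) for the 35 measured genes (rows, grouped by step), in red for T0901317 and in blue for GW3965, with 95% intervals of the limma fit and filled points for an adjusted p under 0.05. The filled points are acsl1b to the right and pdk4 to the left under both agonists, hadhb under T0901317 and echs1 under GW3965.

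Most of the differences were small. Under T0901317 the difference was negative for 25 of 35 genes, 71.4% against 41% of all genes tested, and the median over the 35 genes was -0.08 against 0.04 over all genes. Under GW3965 it was negative for 20 of 35 genes, 57.1% against 48.1%, with a median of -0.07 against 0.01, which moved to -0.02 without GW3965 replicate 4. Hepatocyte and enterocyte markers had shares of negative values at least as high: 10 of 14 (71.4%) and 10 of 13 (76.9%) under T0901317, and the same counts under GW3965. Under T0901317 the differences of skeletal muscle and heart markers were negative for 6 of 14 and 3 of 7 (42.9% each). Under GW3965 they were negative for 8 of 14 (57.1%) and 5 of 7 (71.4%). The part of these tissues in the shares of the 35 genes was not tested. Without overlap between the groups, 9 genes lay lower in T0901317 larvae and 1 higher, where 4.58% and 7.97% of all genes did so. In GW3965 larvae 5 genes lay below all DMSO arrays and 2 above, against 8.37% and 6.1% of all genes. At an unadjusted p under 0.05, 10 genes were lower and 2 higher under T0901317, against 5.43% and 9.44% of all genes, and 6 were lower and 1 higher under GW3965, against 11.7% and 7.87%. Among the 32 genes that were not called, the 95% interval stayed within 1.5-fold in either direction for 26 under T0901317 and for 30 under GW3965. The median half-width of the interval was 0.25 on the log2 scale for T0901317 and 0.23 for GW3965.

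**Figure D2:**
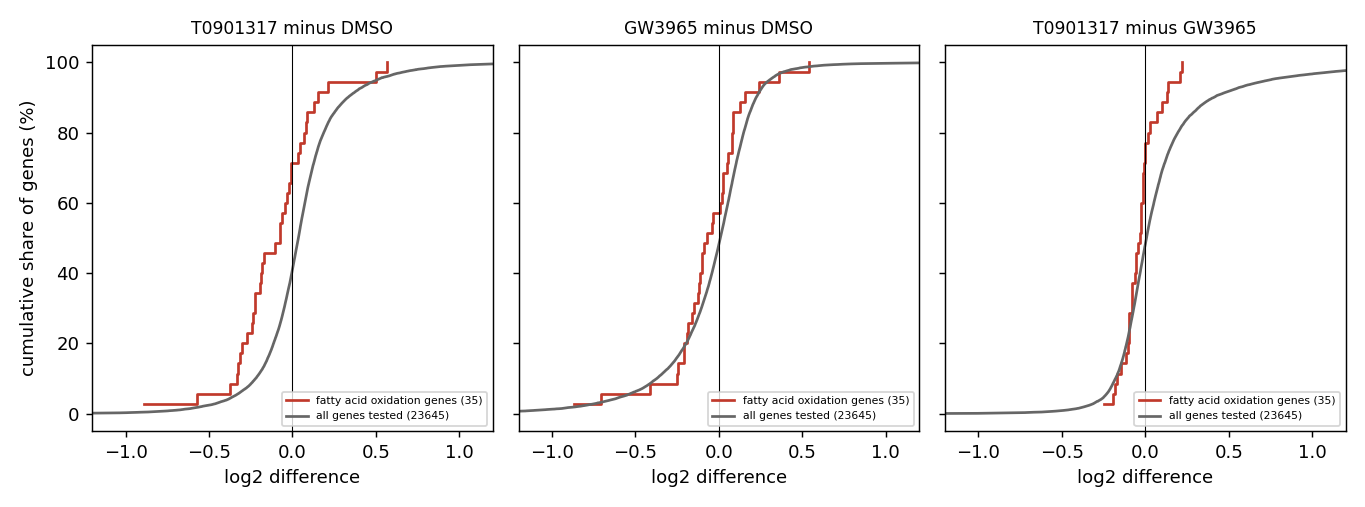
Cumulative share of genes (y axis, percent) at or below a given log2 difference (x axis) for the 35 fatty acid oxidation genes (red steps) and all 23645 genes tested (grey line) in the 3 comparisons. The red steps run left of the grey line near 0 under T0901317, with a median of -0.08 against 0.04, and closer to it under GW3965.

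Activation was represented by acsl1a, acsl1b and mlycd. The long-chain acyl-CoA synthetase gene acsl1b had signals of 643, 683 and 686 in T0901317 larvae and 662, 831, 612 and 672 in GW3965 larvae, against 533, 436, 458 and 471 in DMSO larvae. Every agonist array lay above every DMSO array. It rose 1.42-fold under T0901317 (0.50 ± 0.11, adjusted p = 0.0405) and 1.46-fold under GW3965 (0.54 ± 0.10, adjusted p = 0.0114). The T0901317 call of acsl1b ended without DMSO replicate 2, 3 or 4, without each T0901317 array in turn and without GW3965 replicate 1 or 4 (0.46 to 0.53, adjusted p 0.0578 to 0.124), and under the replicate block, with no filter or in a fit of the 2 groups alone (adjusted p 0.0583 to 0.0703). The GW3965 call held whichever array was left out (adjusted p 0.0118 to 0.0375). Its duplicate acsl1a had differences of -0.01 ± 0.08 under T0901317 and 0.00 ± 0.07 under GW3965, with 95% intervals of -0.18 to 0.16 and -0.15 to 0.16. These are values of its brightest probe, and the other 3 probes ran from 0.02 to 0.22 under T0901317 and from -0.50 to -0.04 under GW3965, none of them called over all probes.

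The malonyl-CoA decarboxylase gene mlycd, whose product removes the inhibitor of carnitine-dependent entry, had signals of 323, 342 and 309 in T0901317 larvae and 379.6, 351, 388 and 267 in GW3965 larvae, against 472, 357, 347 and 366 in DMSO larvae. The T0901317 arrays all lay just below the lowest DMSO array, while the GW3965 arrays overlapped them. Neither difference passed (-0.24 ± 0.14, adjusted p = 0.521 under T0901317 and -0.16 ± 0.13, adjusted p = 0.572 under GW3965). Without DMSO replicate 1, the highest of its group, the T0901317 difference of mlycd was -0.14, and without GW3965 replicate 4, the lowest of its group, the GW3965 difference was -0.04.

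None of the 3 measured carnitine shuttle genes was called. The gene of the inner-membrane carnitine palmitoyltransferase, cpt2, had signals of 328, 316 and 315 in T0901317 larvae and 359, 269, 316 and 259 in GW3965 larvae, against 381, 340.5, 543 and 354 in DMSO larvae. The T0901317 arrays lay below all DMSO arrays, of which replicate 3 stood far above the other 3. The differences were -0.31 ± 0.16 under T0901317 (adjusted p = 0.421) and -0.41 ± 0.15 under GW3965 (adjusted p = 0.158). Without DMSO replicate 3 those of cpt2 were -0.16 and -0.26, and its other 2 probes gave -0.12 and -0.09 under T0901317 and -0.40 and -0.19 under GW3965. The carnitine-acylcarnitine carrier gene slc25a20 had signals of 5031, 5039.9 and 4524 in T0901317 larvae and 5918, 5602, 5339 and 5349 in GW3965 larvae, against 5714, 5373, 5872 and 5783 in DMSO larvae. Here the T0901317 arrays lay below all others, and GW3965 and DMSO arrays overlapped. The difference was -0.23 ± 0.07 under T0901317 (adjusted p = 0.173) and -0.03 ± 0.07 under GW3965 (adjusted p = 0.834). For cpt1aa, a gene of the outer-membrane enzyme that malonyl-CoA inhibits, group means were 45.1 ± 4.4 in T0901317 larvae (SD, n = 3) and 47.0 ± 6.8 in GW3965 larvae (n = 4), against 46.1 ± 4.5 in DMSO larvae (n = 4).

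The acyl-CoA dehydrogenases carry out the first oxidation of each round, and none of their 6 genes was called. The short-chain enzyme gene acads had signals of 1328, 1496 and 1392 in T0901317 larvae and 1476, 1503, 1526 and 1355 in GW3965 larvae, against 1845, 1599, 1822 and 1673 in DMSO larvae. Every agonist array lay below every DMSO array. The differences, -0.30 ± 0.08 under T0901317 (adjusted p = 0.0930) and -0.24 ± 0.08 under GW3965 (adjusted p = 0.101), did not pass, although both did with normexp background correction (-0.35 and -0.29, adjusted p = 0.0352 and 0.0388).

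The long-chain enzyme gene acadl had signals of 1364, 1518 and 1509 in T0901317 larvae and 1499.9, 1547, 1663 and 1379.9 in GW3965 larvae, against 1811, 1561, 1737 and 1538 in DMSO larvae. The very long-chain enzyme gene acadvl had signals of 3643, 4452 and 3944 in T0901317 larvae and 4288, 4327, 4383 and 4124 in GW3965 larvae, against 5276, 4404, 4415 and 4899 in DMSO larvae. For acadl the T0901317 arrays, and for acadvl the GW3965 arrays, lay below all DMSO arrays by a narrow margin. The acadl differences were -0.18 ± 0.09 and -0.13 ± 0.09 (adjusted p = 0.405 and 0.463 under T0901317 and GW3965), and those of acadvl -0.24 ± 0.09 and -0.15 ± 0.09 (adjusted p = 0.239 and 0.392). The medium-chain gene acadm was at -0.19 and -0.12, and acad11 at -0.19 and -0.21. Only acad9, whose product also helps assemble respiratory complex I, had a positive value under T0901317 (0.13, and -0.09 under GW3965), and this held for its brightest probe alone, its other 2 probes being at -0.19 and -0.04 under T0901317. By the brightest probe, 5 of 6 dehydrogenase genes were negative under T0901317 and all 6 under GW3965, with medians of -0.19 and -0.14.

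The later steps in mitochondria held both beta-oxidation genes that were called as lower, echs1 and hadhb. Hydration is catalysed for short chains by the product of echs1, which had signals of 256, 291 and 356 in T0901317 larvae and 287, 232, 256 and 317 in GW3965 larvae, against 417, 441, 517 and 406 in DMSO larvae. All agonist arrays lay below all DMSO arrays. The gene fell by 0.71 ± 0.13 under GW3965 (0.612-fold, adjusted p = 0.0106), a call that held whichever array was left out. Under T0901317 the difference of -0.57 ± 0.14 missed the threshold (adjusted p = 0.0647), and it passed in 4 alternatives, normexp, a filter on all arrays, the left-out array put back and eBayes with trend and robust (adjusted p 0.0166 to 0.0469).

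The beta subunit gene of the trifunctional protein, hadhb, which carries its thiolase, had signals of 4518, 4578 and 4189.6 in T0901317 larvae and 5008, 4560.5, 4634 and 4548 in GW3965 larvae, against 5467, 5811, 5803 and 5196 in DMSO larvae. Again no agonist array reached the lowest DMSO array. The gene fell by 0.33 ± 0.07 under T0901317 (0.795-fold, adjusted p = 0.0461), and both other probes of hadhb were negative (-0.28 and -0.29). That call is narrow: it was kept without DMSO replicate 4 but lost without each of the 10 remaining arrays in turn (-0.35 to -0.29, adjusted p 0.0622 to 0.157), and under the replicate block, with no filter, with averaged probes or in a fit of the 2 groups alone (adjusted p 0.0624 to 0.269). Under GW3965 the difference of -0.25 ± 0.07 was not called (adjusted p = 0.0659), but passed with normexp, quantile normalization, eBayes with trend and robust, or array weights (adjusted p 0.0287 to 0.0444).

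The other 5 genes of these steps were not called. The alpha subunit genes of the trifunctional protein were at -0.38 ± 0.14 for hadhaa and -0.08 ± 0.12 for hadhab under T0901317, and at -0.19 ± 0.13 and -0.10 ± 0.11 under GW3965. The hydroxyacyl-CoA dehydrogenase gene hadh was at -0.10 and -0.07, and the mitochondrial thiolase gene acaa2 at -0.33 ± 0.12 and -0.18 ± 0.11. The acetoacetyl-CoA thiolase gene acat1, whose product also serves ketone body metabolism, was by the brightest probe the only positive one, at 0.07 under T0901317 and 0.08 under GW3965. The other 4 probes of acat1 ran from -0.12 to 0.11 under T0901317 and from -0.08 to 0.00 under GW3965. Over the 7 genes the median was -0.33 under T0901317 and -0.18 under GW3965, and 6 of 7 were negative under each agonist.

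**Figure D3:**
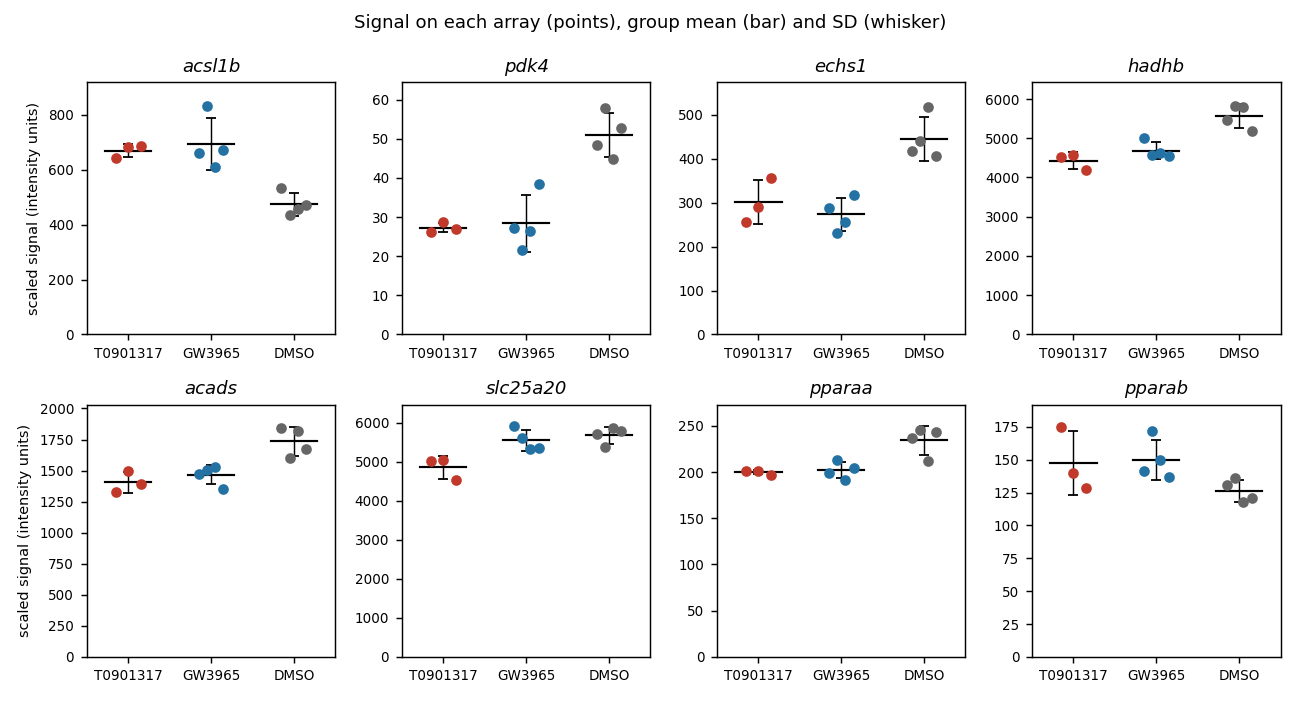
Scaled signal in intensity units (y axes, starting at 0) on each array for 8 of the genes, by group (x axes), with the group mean as a bar and the SD as a whisker (3 T0901317, 4 GW3965 and 4 DMSO arrays). Agonist points lie above all DMSO points for acsl1b and below all of them for pdk4, echs1, hadhb and acads. For slc25a20 and pparaa only the T0901317 points all lie below the DMSO points. For pparab only the GW3965 points all lie above them.

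Genes of unsaturated fatty acid handling showed no difference that passed. The mitochondrial dienoyl-CoA reductase gene decr1 had signals of 879, 968 and 697 in T0901317 larvae and 919.6, 772, 839 and 693 in GW3965 larvae, against 936, 799.6, 1032 and 726 in DMSO larvae. The groups overlapped fully, and the differences were -0.04 ± 0.15 (adjusted p = 0.949) and -0.11 ± 0.14 (adjusted p = 0.727). The enoyl-CoA isomerase gene eci2 was at -0.07 under T0901317 and 0.03 under GW3965. Its other probe was at -0.12 and -0.39, not called over all probes.

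Among the electron transfer genes the subunit genes etfa and etfb lay close to their DMSO level (0.08 and 0.05 under T0901317, 0.09 and 0.05 under GW3965). For etfa the other 2 probes were at -0.09 and -0.03 under T0901317 and at -0.08 and 0.07 under GW3965. The gene of the oxidoreductase that passes their electrons to ubiquinone, etfdh, had signals of 3240.0, 3943 and 3466 in T0901317 larvae and 4005, 3773, 4399 and 3758 in GW3965 larvae, against 4715, 4374, 4289 and 3749 in DMSO larvae. T0901317 arrays were mostly lower but overlapped with DMSO replicate 4, and the GW3965 arrays lay within the DMSO range. The differences were -0.27 ± 0.10 (adjusted p = 0.240) and -0.10 ± 0.10 (adjusted p = 0.611).

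The 5 peroxisomal genes had medians of 0.03 under T0901317 and 0.05 under GW3965, and none of them had groups that did not overlap. The peroxisomal dienoyl-CoA reductase gene decr2 had the smallest p of the group, with signals of 430.5, 476 and 410.4 in T0901317 larvae and 497, 436, 426 and 401 in GW3965 larvae, against 423, 375, 414 and 364 in DMSO larvae. Agonist arrays tended to the upper end of the DMSO range and beyond it. Both differences were 0.16 (SE 0.10 and 0.09, adjusted p = 0.530 and 0.372 under T0901317 and GW3965). The bifunctional enzyme genes ehhadh and hsd17b4 were at 0.09 and 0.03 under T0901317 and at -0.04 and 0.13 under GW3965. The positive T0901317 values of decr2, ehhadh and hsd17b4 held for the brightest probe alone, the other probe of each being at -0.04. The peroxisomal thiolase gene acaa1 was at -0.06 and 0.05, and the branched-chain acyl-CoA oxidase gene acox3 at -0.01 and 0.02.

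The pyruvate dehydrogenase kinase genes had values of both signs, and only pdk4 was called. The kinase gene pdk4, which in mammals is induced in fasting and by PPAR agonists, had signals of 26.3, 28.6 and 27.0 in T0901317 larvae and 27.1, 21.5, 26.4 and 38.5 in GW3965 larvae, against 48.3, 57.8, 44.8 and 52.7 in DMSO larvae. All agonist arrays lay below all DMSO arrays, GW3965 replicate 4 being the closest to them. It fell to 0.539 of the DMSO level under T0901317 (-0.89 ± 0.17, 95% interval -1.26 to -0.52, adjusted p = 0.0223) and to 0.548 under GW3965 (-0.87 ± 0.15, -1.21 to -0.53, adjusted p = 0.00857). On the T0901317 array that the authors left out, the pdk4 signal was 53.4, within the DMSO range. With that array put back the T0901317 difference was -0.65 (adjusted p = 0.227) and the GW3965 call ended as well (adjusted p = 0.0871). The T0901317 call of pdk4 was further lost without DMSO replicate 2 and without each T0901317 array in turn (-0.93 to -0.83, adjusted p 0.0520 to 0.0834). With normexp, which adds an offset of 50 before the log and so shrinks differences of dim genes, the differences were -0.33 and -0.36, both called.

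The kinase gene pdk3b had signals of 65.2, 32.4 and 37.6 in T0901317 larvae and 30.6, 45.3, 35.9 and 38.5 in GW3965 larvae, against 26.8, 32.9, 24.0 and 33.6 in DMSO larvae. T0901317 replicate 1 stood far above the other arrays, and the groups overlapped. Its difference of 0.57 ± 0.23 under T0901317 did not pass (adjusted p = 0.271), nor did 0.36 ± 0.21 under GW3965 (adjusted p = 0.395). For pdk2b the signals were 4349, 5067 and 5859 in T0901317 larvae and 5664, 5888, 6000.4 and 6491 in GW3965 larvae, against 7169, 6121, 3674 and 6448 in DMSO larvae. DMSO replicate 3 lay below all other arrays, and the differences of -0.17 ± 0.20 and 0.08 ± 0.18 have wide intervals (-0.61 to 0.27 and -0.33 to 0.49).

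Of the PPAR genes none was called. The PPAR alpha gene pparaa had signals of 202, 201 and 197 in T0901317 larvae and 199, 213, 192 and 204 in GW3965 larvae, against 236, 245, 212 and 244 in DMSO larvae. T0901317 arrays lay below all DMSO arrays, and GW3965 replicate 2 reached just above the lowest of them. The differences were -0.23 ± 0.08 (adjusted p = 0.174) and -0.21 ± 0.07 (adjusted p = 0.117). The other 2 probes of pparaa were closer to 0, at 0.03 and -0.11 under T0901317 and at -0.05 and -0.10 under GW3965. Its duplicate pparab had signals of 175, 139.7 and 128 in T0901317 larvae and 141, 171, 150.1 and 137 in GW3965 larvae, against 131, 136, 118 and 121 in DMSO larvae. Here the GW3965 arrays lay above all DMSO arrays by a small margin. The values were 0.21 ± 0.12 (adjusted p = 0.467) and 0.24 ± 0.11 (adjusted p = 0.259), and without T0901317 replicate 1 the T0901317 value of pparab was 0.08. The PPAR delta gene ppardb was at -0.02 under T0901317 and 0.08 under GW3965.

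Between the agonists, at their different labelled doses, no gene of the list was called by limma, against 5.4% of all genes tested (5.26% higher and 0.135% lower in T0901317 larvae). At an unadjusted p under 0.05 there was 1 lower gene and none higher, against 2.56% and 10.9% of all genes. This gene was slc25a20, at -0.19 ± 0.07 (limma adjusted p = 0.261). It was also the only gene of the 35 whose groups did not overlap, where 4.58% of all genes lay lower and 10.4% higher without overlap. For 33 of 35 genes the 95% interval of the difference lay within 1.5-fold either way, all but pdk2b and pdk3b. The T0901317 minus GW3965 difference was -0.02 for pdk4 (95% interval -0.39 to 0.35), -0.04 for acsl1b (-0.28 to 0.20), 0.14 for echs1 (-0.17 to 0.45) and -0.08 for hadhb (-0.25 to 0.08). A difference between the agonists was therefore not shown for any of the called genes, including hadhb and echs1, which were called under 1 agonist each.

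**Figure D4:**
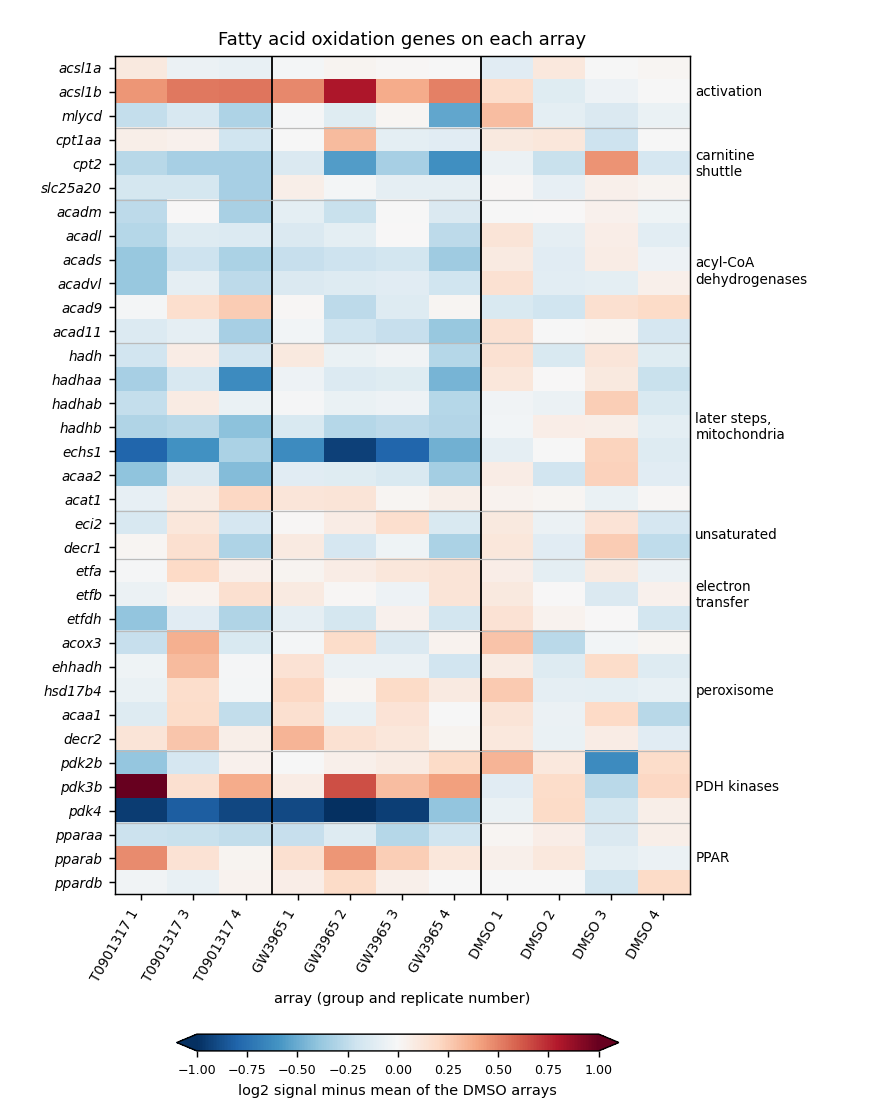
Log2 signal of the 35 genes (rows) on each of the 11 arrays (columns, grouped as T0901317, GW3965 and DMSO), as the difference from the mean of the DMSO arrays, with red for higher and blue for lower and the colour scale ending at 1 and -1. The rows of acsl1b and pdk4 keep their colour over all agonist arrays, as do those of echs1, hadhb and acads among others. Many of the mitochondrial genes are paler on T0901317 replicate 3 than on replicates 1 and 4, but echs1 and etfa, for example, are not.

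The arrays of a group were not alike in these genes. Taken as the deviation from the DMSO mean, the median over the 35 genes was -0.18, 0.01 and -0.19 on the T0901317 arrays (replicates 1, 3 and 4) and -0.01, -0.07, -0.04 and -0.15 on the GW3965 arrays, against 0.09, -0.06, 0.04 and -0.06 on the DMSO arrays. T0901317 replicate 3 thus lay within the DMSO range, and below the DMSO mean were 17 of its 35 genes, compared with 28 and 25 on replicates 1 and 4. The median T0901317 difference was -0.08 with all arrays and -0.19 without T0901317 replicate 3. Over the same arrays the median of all genes stayed between -0.02 and 0.04.

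Several probes were available for 26 of the genes, and the values above are those of the brightest one. The called genes acsl1b, echs1 and pdk4 had 1 probe each, so no other probe could be set beside their calls. Of all 80 probes in the fit, 62 had a negative difference under T0901317 and 57 under GW3965. These counts partly repeat those of the 35 genes, as several probes read the same gene on the same arrays. Over all 36737 probes tested the median difference was 0.028 under T0901317 and 0.002 under GW3965. Probes of hadhaa and acox3 lay apart from the brightest one under both agonists. For hadhaa the other 3 probes gave -0.86 to -0.58 under T0901317 and -0.69 to -0.57 under GW3965, all more negative than the brightest, and none was called over all probes. For acox3 the brightest probe lay near 0, while the other 2, which were dimmer, gave -0.76 and -0.56 under T0901317 and -0.87 and -0.81 under GW3965, also not called. Other probes of hadhab were at -0.25 and -0.22 under T0901317 and at -0.25 and -0.34 under GW3965. That of decr1 was at -0.38 and -0.24 under T0901317 and GW3965, and that of acadl at -0.33 and -0.22. All were more negative than the brightest probe of their gene, and none was called over all probes. Those of cpt2 and pparaa, given above, were less negative than the brightest. The T0901317 median over the 35 genes was -0.16 when the probes of a gene were averaged.

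**Figure D5:**
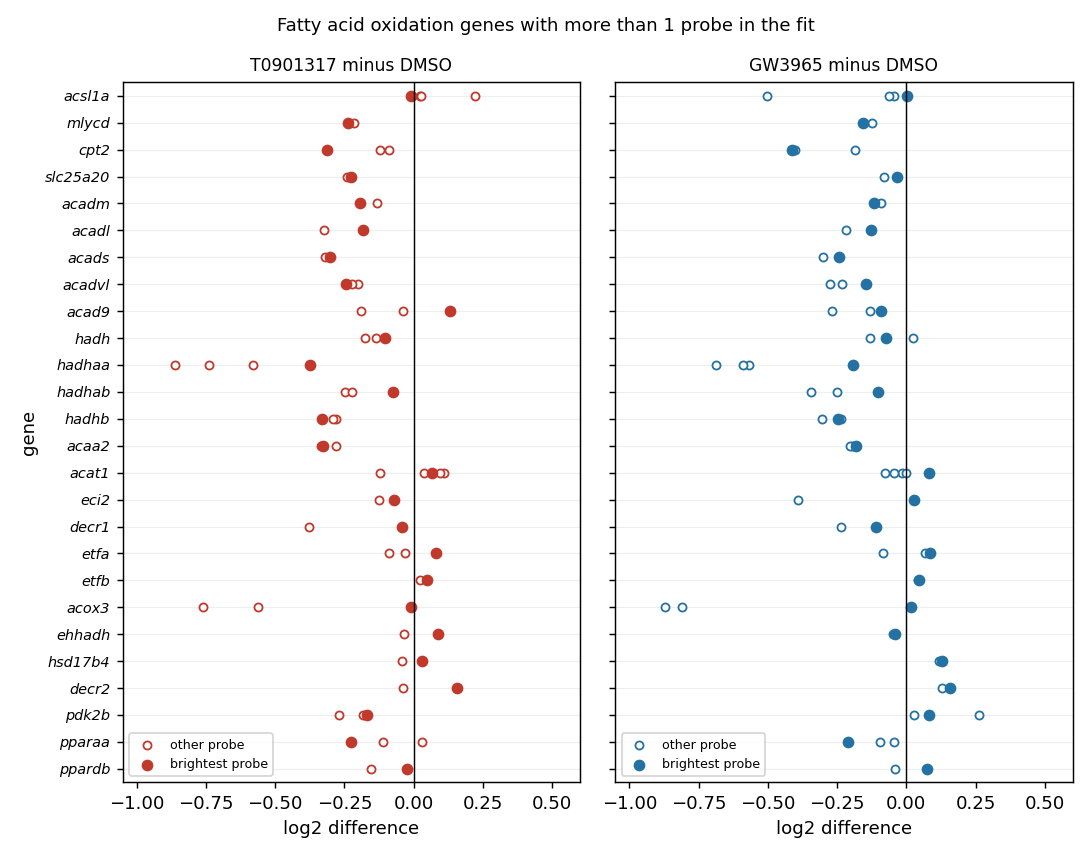
Log2 differences from DMSO (x axes) of every probe of the 26 genes with more than 1 probe in the fit (rows), with filled points for the brightest probe and open points for the others, for T0901317 (left) and GW3965 (right). The open points of hadhaa and acox3 lie well to the left of the filled ones under both agonists. Under GW3965 1 open point of acsl1a, at -0.50, and that of eci2, at -0.39, lie to the left of their filled ones as well.

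Other genes of the pathway were taken from a list of 66 further symbols, of which 47 were measured. Under T0901317, 2 rose and 1 fell, where 1.58% and 0.998% of all genes tested did so. Under GW3965, 3 rose and none fell, where 1.22% and 4.47% of all genes did so. The largest called rise was that of acsl4a, which encodes an acyl-CoA synthetase that in mammals prefers arachidonate and feeds lipid synthesis, with signals of 3283, 3496 and 3688 in T0901317 larvae and 3348, 3249, 3379.8 and 3595 in GW3965 larvae, against 1349.7, 1369.7, 1103 and 1350.1 in DMSO larvae. Each agonist array was well above each DMSO array. It rose 2.71-fold (1.44 ± 0.09) and 2.63-fold (1.40 ± 0.09). The peroxisomal acyl-CoA transporter gene abcd3a rose by 0.70 ± 0.09 and 0.76 ± 0.09, with every agonist array above every DMSO array.

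The list also held the substrate of the kinases and further regulators. The pyruvate dehydrogenase subunit gene pdha1b had signals of 96.1, 91.7 and 116 in T0901317 larvae and 117, 149.8, 125 and 122 in GW3965 larvae, against 139.7, 189.8, 197 and 173 in DMSO larvae. Only the T0901317 arrays were all below the DMSO range. It fell by 0.78 ± 0.14 under T0901317 (adjusted p = 0.0160), a call that ended without DMSO replicate 2 or T0901317 replicate 1 or 3 (adjusted p 0.0528 to 0.0717), and was at -0.44 ± 0.13 under GW3965 (adjusted p = 0.0788). Its duplicate pdha1a was not called, at -0.10 ± 0.07 under T0901317 (adjusted p = 0.618) and -0.02 ± 0.07 under GW3965 (adjusted p = 0.900). T0901317 arrays of pdha1a lay below all DMSO arrays, and its GW3965 arrays overlapped them. The further subunit genes pdhb and dlat were at -0.03 and 0.06 under T0901317 and at -0.01 and -0.14 under GW3965, also not called. The transcription factor gene foxo1a rose by 0.39 ± 0.09 under GW3965 (adjusted p = 0.0368), a call lost without each of the 4 GW3965 arrays in turn and without DMSO replicate 1, 2 or 3 (adjusted p 0.0535 to 0.104). The receptor gene pparg was higher in T0901317 than in GW3965 larvae by 0.80 ± 0.14 (adjusted p = 0.00602), with signals of 73.8, 55.0 and 61.7 in T0901317 larvae against 42.0, 36.0, 32.0 and 35.5 in GW3965 larvae, and neither agonist differed from DMSO by a called amount (0.36 and -0.44).

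Markers of tissues rich in fatty acid oxidation were read beside these genes, with 2.58% of all genes tested called under T0901317 and 5.69% under GW3965. Of 14 measured hepatocyte markers, fabp10a rose and hal fell under T0901317, and fabp10a rose and cp fell under GW3965. Their summed signal ran from 332435 to 366714 in T0901317 larvae and from 294558 to 370887 in GW3965 larvae, against 293783 to 335160 in DMSO larvae. Of 14 skeletal muscle markers the slow myosin gene smyhc1 fell under T0901317 (-0.52 ± 0.08, but -0.33 and not called with its probes averaged, adjusted p = 0.103). Under GW3965 smyhc1 (-0.57 ± 0.08) and mylpfa fell, mylpfa by 0.28, but it was at -0.11 and not called with its probes averaged (adjusted p = 0.399). The muscle sums were 1322020 to 1408190 and 1214030 to 1320750 under T0901317 and GW3965, against 1324210 to 1492060 in DMSO larvae. Of 13 enterocyte markers apoa4a rose under both agonists, slc6a19a.1 fell under both and apoa4b.1 fell under T0901317, with sums of 120346 to 143073 and 141865 to 149041, against 123651 to 153745. None of 7 heart markers was called, and no marker measured was at 0. These sums are weighted to the brightest genes, and the medians over single markers were -0.13 for hepatocyte, -0.15 for enterocyte, 0.01 for skeletal muscle and 0.00 for heart markers under T0901317, and -0.11, -0.10, -0.08 and -0.02 under GW3965. Below all DMSO arrays lay 5 of 14 hepatocyte and 4 of 13 enterocyte markers in T0901317 larvae (2 and 1 above all of them), and 1 and 2 in GW3965 larvae (1 and 2 above). Of all genes tested, 4.58% lay below and 7.97% above in T0901317 larvae, and 8.37% and 6.1% in GW3965 larvae. The part of these tissues in the differences above was not tested.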

How the data were processed

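RNA from whole larvae was hybridised to 12 one-colour Agilent arrays. Per the file headers, the authors used Agilent Feature Extraction 11.0.1.1 to read the spots. What they deposited is the processed signal of each spot, a linear intensity after background subtraction, not scaled between arrays. The deposited series table held the same intensity values as the scanner files. The array design uses the build Zv8, per the file headers, so no positions are given. Groups, doses and days come from the labels.

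Spots marked as outliers were left out, spots of a probe were averaged (43603 probes), and probes were named through RefSeq accessions with the RefSeq gene table of GRCz12tu, for names only, which gave 25069 probes 1 symbol and left 18534 without. Signals were log2 transformed and scaled to the 75th percentile of each array. Probes well above background on at least 3 of 11 arrays entered, and the brightest stood for its gene. Group means of the 11 arrays were fitted with limma 3.58.1 in R 4.3.3 (8 residual and 2.69 prior degrees of freedom), with 3 contrasts and no covariates. The call threshold was an adjusted p of 0.05 over 23645 genes. The number of arrays limits the precision. Alternatives changed the background correction (normexp, on median spot signals), scaling, filter, probe rule, samples, block, variance model and threshold. The script was tested on simulated data.

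The members, the lists of other pathway genes and of markers, and the alternatives were chosen with earlier results of these data known. Genes called, or without overlap between an agonist and DMSO, and the smallest p of each step are given on every array; pdk2b, pdk3b and pparg were added after their values were seen. Of the other lists called genes are named, and pdha1a, pdhb and dlat were added beside pdha1b. In their deviations from group means, same-numbered T0901317 and GW3965 arrays correlated with r of 0.132, 0.280 and 0.498, and arrays of unlike number reached 0.177. The fit reported did not pair them, and the replicate block, run as an alternative, changed no call of the 35 genes between the agonists. Against DMSO the same-numbered r were 0.0256, 0.134 and 0.463 for T0901317 and 0.167, 0.0440, 0.157 and 0.381 for GW3965. Arrays of unlike number reached 0.304 and 0.128, and the fit reported did not pair these comparisons either. Sequences were not used here.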

Additional observations from a re-analysis of the deposited data

Results flagged for a closer look

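Among 102 groups of 4 arrays checked for a single array far from the other 3, which chance gives in about 1 in 20, 6 had one, and 2 of these are fatty acid oxidation genes. The thiolase gene acaa2 had a signal of 2529.9 on GW3965 replicate 4, against 2883 to 2951 on the other GW3965 arrays. The peroxisomal bifunctional enzyme gene hsd17b4 had 3974 on DMSO replicate 1, against 3105 to 3158 on the other DMSO arrays. Among the other genes read here, apoa4a had 1073 on GW3965 replicate 4 (others 1153 to 1163), hal 409.9 on GW3965 replicate 3 (324 to 337), abcd3a 2961 on DMSO replicate 1 (2678 to 2687) and acsl4a 1103 on DMSO replicate 3 (1349.7 to 1369.7).

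Of the other pathway genes, tissue markers and LXR targets read here, 3 were called in the test of T0901317 against GW3965, as were 1276 of all genes tested. The T0901317 minus GW3965 difference was 0.80 for pparg, 0.63 for srebf1 and -0.40 for apoa4b.1. The difference of apoa4b.1 lost its call without T0901317 replicate 1 (adjusted p = 0.0810). That of srebf1 lost it without T0901317 replicate 1 or 4 or GW3965 replicate 3 or 4 (adjusted p 0.0550 to 0.103) and with the probes averaged (0.34, adjusted p = 0.494).

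The array left out by the authors, T0901317 replicate 2, had 89.8% of probes well above background, more than any of the 11 others. On it 4 of the 35 genes lay above every DMSO array (acsl1b at 784, pparab at 297, pdk3b at 72.9 and cpt1aa at 59.4) and 22 below every DMSO array. Its signal was outside the range of the other T0901317 arrays for 26 of 35 genes, above it for 6 and below it for 20. The shares of all genes outside these ranges on this array were not counted. These counts can therefore not be read as particular to the 35 genes. Why this array was left out is not stated in the sources used here.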

How the results depend on the processing

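Each result was recomputed under 24 alternatives, 11 of which left out 1 array each. The fatty acid oxidation genes called under T0901317, 3 in the fit reported, were 5 with normexp (acads and echs1 added), 2 to 4 in the settings not named here, 1 with no filter, with the replicate block (pdk4) or with only the 2 groups compared, 0 at an adjusted p under 0.01, and 0 to 2 with 1 array left out. Under GW3965 they were 5 with normexp, 1 at an adjusted p under 0.01 and 2 to 4 in the other alternatives. Between the agonists they were 0 throughout. With every probe tested, 933 of 36737 probes were called under T0901317, a count of probes and not of genes. Over all genes the count under T0901317 was 610. It was 396 with T0901317 replicate 2 put back and 285 with only the 2 groups. At an adjusted p under 0.01 it was 161, and 258 to 615 with 1 array left out. Under GW3965 it was 1345, and 676 with that array back, 503 at an adjusted p under 0.01 and 816 to 1332 with 1 array left out. Between the agonists it was 1276, and 807 with normexp, 742 at an adjusted p under 0.01 and 820 to 1275 with 1 array left out. The T0901317 median over the 35 genes was -0.16 with the probes averaged and -0.19 to -0.052 with 1 array left out. The decr1 difference under T0901317, -0.04, turned positive with array weights (0.000666), without DMSO replicate 3 (0.04) and without T0901317 replicate 4 (0.092), within a range of -0.14 to 0.092 with 1 array left out. Apart from the count of probes instead of genes, the cause of these shifts was not tested.

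With the replicate number as a block, the fits moved acsl1b and hadhb out of the T0901317 calls (adjusted p = 0.0703 and 0.0700) and changed no other call of the 35 genes. Marker calls were as narrow: fabp10a, hal, cp and mylpfa lost theirs on leaving out any 1 of 8 (T0901317) or 6 (GW3965), 9, 4 and 9 arrays (adjusted p up to 0.118, 0.161, 0.0737 and 0.119). With the probes averaged, fabp10a (adjusted p = 0.112 under T0901317 and 0.0745 under GW3965), cp (0.0662) and mylpfa (0.399) lost theirs as well. A slide block could not be fitted, since each slide holds 1 group, and the series table was not fitted again, being identical to the scanner values.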

Other observations

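The forkhead gene foxo1b, singled out after its values were seen, had signals of 59.8, 79.3 and 13.1 on the T0901317 arrays and 11.9, 14.7, 11.1 and 13.6 on the GW3965 arrays, against 12.04, 10.1, 13.3 and 13.4 on the DMSO arrays. Only T0901317 replicates 1 and 3 were high, and the difference of 1.70 ± 0.48 was not called (adjusted p = 0.103).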
